A study of Mus musculus with 39 samples.

Results

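The matrix proteases and their inhibitors are the genes on the array whose symbols name a matrix metalloproteinase (Mmp), a tissue inhibitor of metalloproteinases (Timp) or an Adamts protease. The symbol alone chose them, and 45 of the 29411 gene symbols on the array matched, with 64 probes. A gene was kept when a probe of it stood well above background on 6 or more of the 39 arrays, which left 38 of these 45 genes among 24723 kept genes. The study followed C57BL/6J mice, aged 3 to 4 weeks at the start, on 5 diets, and the tissue of this series is labelled brown infiltrating macrophages (SVCs). The low fat diet (LFC, 10 arrays) held 10% of calories as fat, and the high fat, high sucrose diet (HFC, 11 arrays) held 60%. The groups HF5, HF20 and HF75 (6 arrays each) received the same high fat diet with 5, 20 or 75 µg of KAL-1, a botanical formulation whose composition the labels do not give. Each group held 30 animals, of which 5 were taken every 3 weeks. There is 1 array for each diet and time label, and whether it carries RNA of 1 animal or of several is not stated. LFC and HFC were measured at Day 1, 6, 10 and 14 and at Week 0, 3, 9, 12, 15 and 18, HFC also at Week 6, and the KAL-1 groups from Week 3 to Week 18. Weeks were counted from Day 14, so Day 14 and Week 0 fall on the same day.

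Matrix metalloproteinases are zinc enzymes made as inactive proenzymes, and together they cut nearly every protein of the extracellular matrix. Fibroblasts and preadipocytes of fat tissue are known to make gelatinase A (Mmp2), the membrane-anchored Mmp14 that activates it, and stromelysin 1 (Mmp3), while neutrophils store the collagenase Mmp8 and gelatinase B (Mmp9) in their granules and macrophages make the elastase Mmp12. The Adamts proteases are secreted relatives that cut proteoglycans such as versican and aggrecan or trim procollagens, and the TIMPs block both families. In fat these enzymes take part in making room for growing fat cells and new vessels.

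Of the members, 9 Mmp genes lie side by side on chromosome 9, within chr9:7272514-7699585 (GRCm38.p6), and 6 of them passed the filter. Promoters of that cluster are shown because it holds all the members with an AP-1 motif, next to the neutrophil gene Mmp8, which lacks it. RefSeq promoters were matched by symbol for 31 of the 45 members. The AP-1 motif TGACTCA, searched on both strands in the 250 bases before each start, occurred in 6 members (Mmp1a, Mmp3, Mmp7, Mmp10, Mmp12 and Mmp13), all in the cluster, and in 4.46% of 32851 promoters. The last 100 bases before the start are printed 5′ to 3′ on the plus strand, which is the genes' own strand, with the motif, in either orientation, in capitals.
Mmp13 (chr9:7272414-7272513): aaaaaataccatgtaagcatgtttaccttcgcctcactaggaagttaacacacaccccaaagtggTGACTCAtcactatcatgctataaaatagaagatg
Mmp3 (chr9:7445722-7445821): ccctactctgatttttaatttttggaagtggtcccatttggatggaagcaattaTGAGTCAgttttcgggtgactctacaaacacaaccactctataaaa
Mmp10 (chr9:7502242-7502341): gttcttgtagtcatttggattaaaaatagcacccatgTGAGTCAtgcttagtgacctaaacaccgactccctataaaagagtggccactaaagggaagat
Mmp7 (chr9:7691990-7692089): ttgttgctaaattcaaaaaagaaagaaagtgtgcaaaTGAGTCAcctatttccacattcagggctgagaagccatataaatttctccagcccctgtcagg
Mmp8 (chr9:7558329-7558428): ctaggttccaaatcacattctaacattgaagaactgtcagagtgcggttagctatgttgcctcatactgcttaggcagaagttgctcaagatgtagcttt
Mmp27 (chr9:7571296-7571395): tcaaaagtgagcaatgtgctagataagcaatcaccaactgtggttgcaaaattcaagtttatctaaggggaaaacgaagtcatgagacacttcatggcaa
The motif lies in the first 4 of these windows, with Mmp7 shown at the 1 of its 2 listed starts that has it, and these letters are not in the 250 bases before the starts of Mmp8 and Mmp27. TATAAA, also on both strands, occurred in 8 members and in 12.4% of all promoters, and GGGCGG in 16 members and in 32.7% of all promoters. Over the arrays, the levels of the 6 kept cluster genes correlated with each other at Pearson r from 0.003 to 0.63 (median of 15 pairs 0.42), a description of arrays that share their brightness. Within the 30 arrays whose titles lack the token BA or BAT the median was 0.26.

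Levels are given as log2 of the processed signal minus the array's own 75th percentile, so that 0 is the 75th percentile of that array. Levels of different genes come from different probes and were not compared. The 75th percentile intensity ran from 18.1 to 3974 (median 129.9), and between 31.2% and 98.0% of spots passed as well above background. In 9 sample titles stands BA or BAT, whose meaning is not given (HFC Day 1 and Week 9, LFC Day 6, Week 12 and Week 18, HF5 Week 9 and Week 15, HF20 Week 12, HF75 Week 15), and the median intensity of these arrays was 852 against 81.1 on the other 30. HFC Week 6, with an ordinary title, stood at 748. On HF20 Week 15, 71.4% of spots were flagged as outliers and have no value, among them those of Mmp8, Mmp9, Mmp13, Mmp25 and Timp4. Of 10 macrophage markers 7 were well above background on all 39 arrays, and Cd68, Emr1 and Csf1r were among them. So were 8 of 11 fibroblast, 7 of 8 general adipocyte, 6 of 8 brown adipocyte (Ucp1 included) and 3 of 10 neutrophil markers. LFC Day 10 and HFC Week 12 stood apart in their marker means. Their mesothelial means were 2.16 and 1.61, against at most -0.87 (HF5 Week 6) on the other arrays with a value. Their brown adipocyte means were -0.79 and -2.61, against at least 0.46 (HFC Day 6) on the others with a value. Fewer cells of a type and less RNA per cell cannot be told apart in such samples.

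The arrays detected between 16 (HF20 Week 9) and 44 of the members. This and all other counts of well above background, the filter included, take in spots flagged as outliers, whose values were dropped. Counts above 40 came from 4 arrays, namely HFC Day 1, HF5 Week 12, HFC Week 12 and HF20 Week 15, and the other arrays reached at most 33. The 7 genes below the filter were Adamts13, Adamts19, Mmp1a, Mmp12, Mmp16 and Mmp28, each well above background on 5 arrays, and Mmp20, the enamel protease, on none. Mmp12, the macrophage elastase, was well above background on HFC Day 1 and Week 12, HF5 Week 12 and Week 15 and HF20 Week 15, and on no LFC or HF75 array. Its levels ran from -8.72 to -1.76 in LFC and from -8.69 to -1.47 in HFC, where all LFC values and all but 2 HFC values are below background and carry no order. At the other end, Adamts1, Adamts2, Adamts5, Mmp14, Mmp17 and all 4 TIMPs were well above background on all 39 arrays.

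Among the stromal proteases, Mmp2 (chr8:92827290-92853421), which degrades type IV collagen and denatured collagen, had a lowest, median and highest level of -3.06, -0.77 and 1.53 in LFC. In HFC these were -2.77, 0.69 and 2.19, in HF5 -1.98, 0.35 and 2.27, in HF20 -1.57, 0.68 and 2.31, and in HF75 -0.74, 0.42 and 2.59. All 5 ranges overlapped, and the lowest levels were on LFC Day 1 (-3.06), HFC Day 14 (-2.77) and LFC Day 14 (-2.48). On those arrays the Mmp2 spot was below background. Mmp14 (chr14:54431598-54442456), the membrane enzyme that activates pro-Mmp2, ran from 0.53 to 4.28 in LFC (median 1.61) and from 0.59 to 3.75 in HFC (median 2.06). Its medians were 1.48 in HF5, 1.25 in HF20 and 2.25 in HF75. The high values lay on LFC Day 10 (4.28) and on HFC Week 12 and Week 15 (3.75 and 3.73), and the ranges overlapped. LFC Day 10 and HFC Week 12 are the arrays with high mesothelial and low brown adipocyte means, whose part in these values was not tested.

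Mmp3 (chr9:7445822-7455975), which cuts proteoglycans and activates other proenzymes, ran from -2.75 to 3.54 in LFC (median -0.12) and from -2.57 to 3.85 in HFC (median 0.08). In the KAL-1 groups its medians were 1.71, 1.69 and 1.55 from the low to the high dose, but those groups have no array before Week 3. Adamts1 (chr16:85793827-85803113), a versican protease, had medians of 4.31 in LFC, 4.28 in HFC, 2.39 in HF5, 2.14 in HF20 and 2.71 in HF75. Its low arrays were HF20 Week 12 (-0.17), HFC Week 6 (0.08) and LFC Week 12 (0.33), and HF20 Week 15 (0.39), HF75 Week 15 (0.45), HF5 Week 15 (0.53) and HF5 Week 9 (0.96) were near them. Of those 7 arrays, 5 have BA or BAT in the title. Its neighbour Adamts5 (chr16:85858157-85901125), the aggrecanase, stayed between -0.01 and 1.94 in LFC and between 0.36 and 2.20 in HFC. Adamts2, which removes the amino propeptide of fibrillar procollagens, ran from 1.21 to 5.85 in LFC and from 1.22 to 4.61 in HFC. Its highest levels in these diets lay on LFC Day 10 and HFC Week 12, the arrays with high mesothelial means.

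Among the leukocyte proteases, Mmp8 (chr9:7558429-7568486), the neutrophil collagenase, had values on 38 arrays. In LFC it was 0.01 at Day 1, -3.80 at Day 6, -4.36 at Day 10, -1.80 at Day 14, -1.79 at Week 0, -2.43 at Week 3, 2.73 at Week 9, -6.95 at Week 12, -2.52 at Week 15 and -7.51 at Week 18. In HFC it ran from -8.71 (Week 6) to 0.08 (median -1.57), in HF5 from -7.09 to 3.51 (median -1.92), in HF20 over 5 arrays from -6.59 to 2.11 (median -2.78) and in HF75 from -8.00 to 0.72 (median -0.63). Every level under -6 was on an array with BA or BAT in its title or on HFC Week 6, and none of those was well above background for Mmp8. Mmp9 (chr2:164940326-164955850), gelatinase B, had medians of -3.13 in LFC, -2.42 in HFC, -1.67 in HF5, -3.10 in HF20 and -1.94 in HF75. It ran from -6.46 (LFC Week 12) to 0.68 (LFC Week 9), both in 1 diet. Mmp25, the leukocyte enzyme leukolysin, was well above background on 6 arrays and on no HF75 array. Its spot on HF20 Week 15, which is counted there, has no value.

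Of the inhibitors, Timp3 (chr10:86300412-86349505), which binds to the matrix and also blocks Adamts proteases, ran from 3.02 to 6.65 in LFC (median 5.64) and from 3.63 to 6.31 in HFC (median 5.57). Its medians were 4.45, 4.36 and 4.84 in HF5, HF20 and HF75. Timp1 (chrX:20870166-20874737), the inducible inhibitor that pairs with pro-Mmp9, ran from -1.84 to 2.05 in LFC (median 0.04) and from -2.05 to 2.07 in HFC (median 0.45). Timp2, which bridges Mmp14 and pro-Mmp2, had medians of 3.96 in LFC and 4.07 in HFC, and its spot was saturated on 1 array. Timp4, made by fat cells and muscle, had medians of 3.60 and 3.57. The lowest Timp1 levels, near -2, were on HFC Week 9, HF20 Week 12, HF5 Week 9, HF75 Week 15 and, at -1.84, LFC Week 12, all titled BA or BAT.

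**Figure D1:**
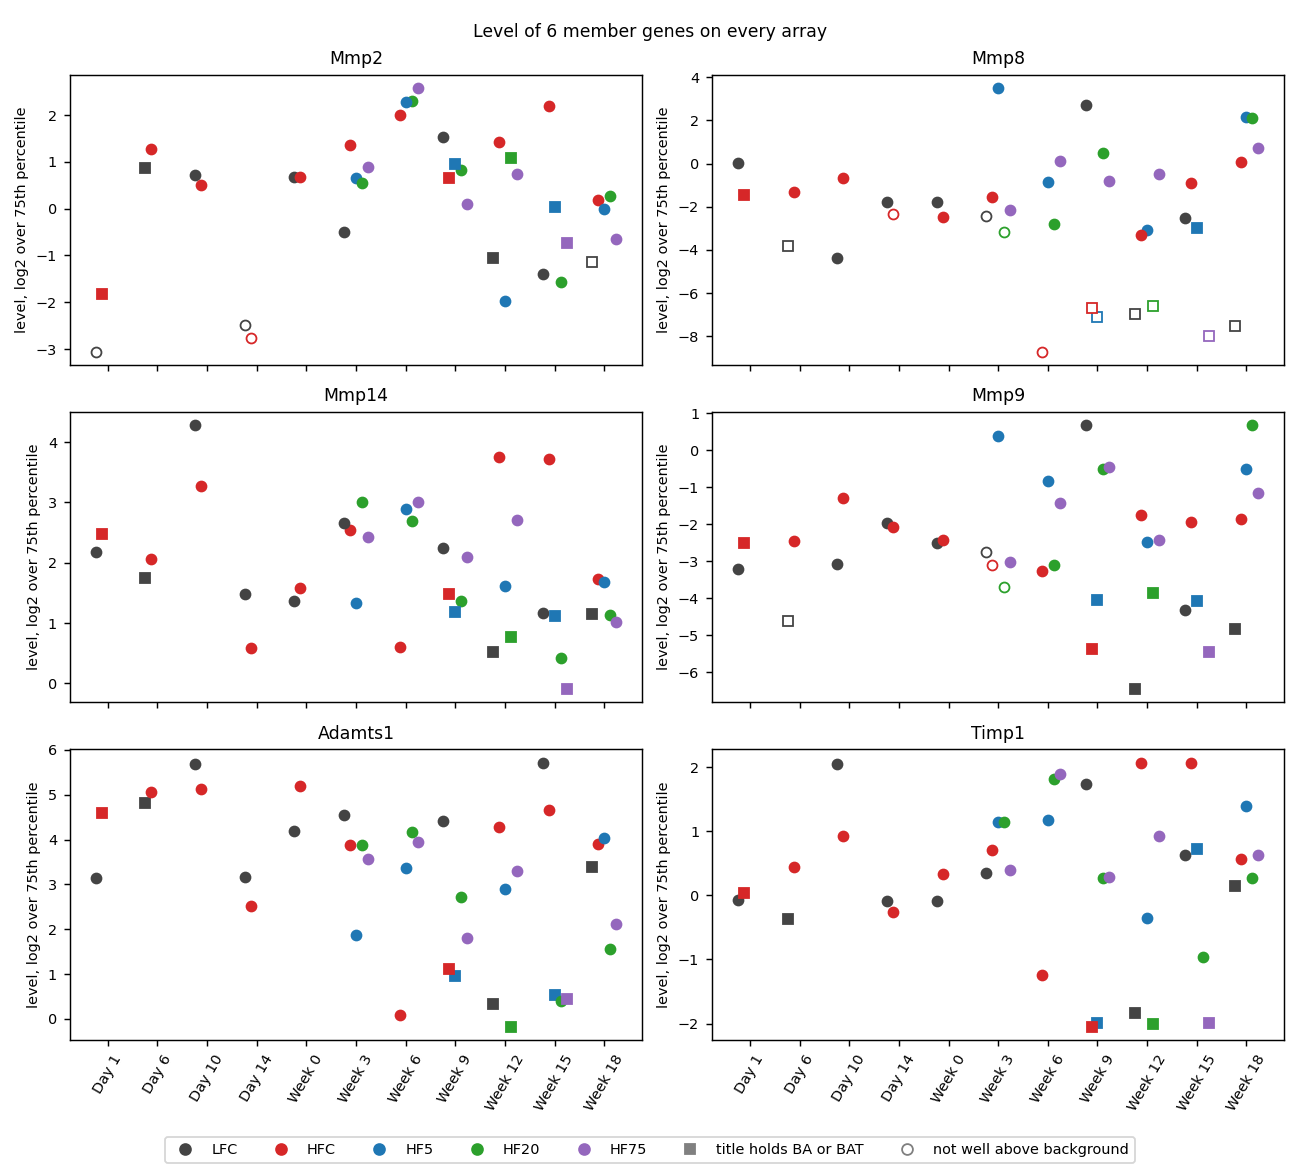
Level of Mmp2, Mmp14, Adamts1, Mmp8, Mmp9 and Timp1 on every array (log2 of the signal over the array's 75th percentile, vertical) by time label (horizontal), with colours for the diets, squares for arrays with BA or BAT in the title and open symbols where the probe was not well above background. The diets overlap in every panel, and for Mmp8 the values under -6 are squares or the HFC array of Week 6.

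The high fat diet was compared with the low fat diet over all 39 arrays with limma in a fit that also held time point, and p-values were adjusted over 34043 probes. None of the 38 members passed (smallest adjusted p = 1.00), where 0% of all probes passed, and 1 member (2.63%) had an unadjusted p under 0.05, against 2.82% of all probes. The methods' t-test, with time points as replicates, also called 0 members, and none of them had an unadjusted p under 0.05 there. That 1 member in the limma fit was Mmp2, with a log2 difference of 0.88 (SE 0.40, p = 0.0352, adjusted p = 1.00). HFC was above LFC for Mmp2 at 6 of 10 time points, by 3.58 at Week 15, 2.48 at Week 12, 1.85 at Week 3, 1.33 at Week 18 and 1.23 at Day 1, and below it by 0.87 at Week 9. The LFC spot was below background at Day 1 and Week 18, so those differences give no measured size. At Week 12 and Week 18 the LFC array is titled BA or BAT, and at Day 1 and Week 9 the HFC array is. Over the 6 time points at which both arrays share a scan date, the mean Mmp2 difference was 1.15, with HFC higher at 3 of them.

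The other large positive differences in this comparison were those of Mmp21 (0.95, SE 0.85) and Mmp27 (0.94, SE 0.57), and neither passed. The most negative were those of Adamts8 (-0.61), an aggrecanase that also blocks vessel growth, Adamts9 (-0.55), a versican protease, and Mmp15 (-0.48), a membrane-type enzyme. The sign depended on the probe for Adamts8 and Adamts9. Their other probes, well above background on 29 and 11 arrays, gave 0.58 and 0.30. In all, 27 members had positive and 11 negative differences, with a median of 0.23, against a median of 0.04 over all kept genes, of which 53.8% were positive. Mmp3 (0.47), Mmp9 (0.76), Mmp8 (0.33, SE 1.38), Mmp14 (0.24), Timp1 (0.02) and Timp3 (-0.04) did not pass either. The SD of the Mmp8 difference over the 10 time points was 4.47, with values from -9.43 at Week 9, where the HFC array is titled BA or BAT, to 7.59 at Week 18, where the LFC array is, and in both the Mmp8 spot of the titled array was below background.

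Whether the diet difference changed between the first 5 time labels (Day 1 to Week 0) and the 5 later ones was tested as an interaction over 20 arrays. No member passed (smallest adjusted p = 1.00; 0% of all probes), and 2 members (5.26%) had an unadjusted p under 0.05, against 2.35% of all probes. The largest later-minus-earlier differences were those of Mmp7, the matrilysin of epithelia (3.50, SE 2.52), Adamts15 (2.27, SE 0.91) and Timp2 (1.64, SE 1.16). The 2 with an unadjusted p under 0.05 were Adamts15 and Mmp11 (1.36, SE 0.46). The most negative were those of Adamts6 (-1.41), Adamts3 (-1.32) and Adamts16 (-1.25). Mmp7 was well above background on 2 LFC and 2 HFC arrays, Adamts3 on 1 and 3, and Adamts16 on 2 and 6. The sizes of Adamts3 and Adamts16 here therefore rest mostly on spots below background and are not measured differences. For Mmp7, LFC Day 10 (3.29) and HFC Week 12 (2.75) were well above background, against -5.59 on HFC Day 10 and -6.72 on LFC Week 12. No other LFC or HFC level exceeded -3.30 (LFC Week 9), so its size rests largely on those arrays, which have the high mesothelial means. HFC Day 10 was below background for Mmp7, so the Day 10 difference gives no measured size.

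Each KAL-1 dose was compared with HFC in the same fit, and the 3 comparisons share the HFC arrays. None of the 38 members passed at any dose, with 0% of all probes called at each. For HF5, 1 member (2.63%) had an unadjusted p under 0.05 against 1.46% of all probes, for HF20 2 (5.26%) against 2.66%, and for HF75 2 (5.26%) against 3.55%. The methods' t-test called 0 members at each dose, with 1, 0 and 1 of them at an unadjusted p under 0.05 from the low to the high dose.

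At 5 µg, the largest differences were those of Mmp8 (1.97, SE 1.71), Mmp9 (0.89, SE 0.92) and Adamts6 (0.70). The most negative were those of Adamts1 (-0.94, SE 0.85), Mmp11 (-0.90, SE 0.47), the stromelysin of tissue remodelling, and Adamts8 (-0.90). Adamts5 had a difference of -0.89 (SE 0.42, p = 0.0439, adjusted p = 1.00) and was lower at 4 of 6 time points. The Mmp8 difference ranged from 7.87 at Week 6, where the HFC array was bright and Mmp8 not above background on it, to -2.12 at Week 15.

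At 20 µg, the largest differences were those of Adamts16 (2.32, SE 1.09), Adamts20 (1.63) and Adamts14 (1.48, SE 0.60), a procollagen N-proteinase. The most negative were those of Adamts1 (-1.13), Adamts10 (-0.80), which binds fibrillin, and Timp3 (-0.63). Adamts16 was well above background on 15 of the 39 arrays, 3 of them HF20 and 6 HFC, and Adamts20 on 6 arrays, so most of their differences are against spots below background and give no measured size. The largest single difference of Adamts16, 6.04 at Week 9, lies between 2 such spots, on arrays with a 75th percentile intensity of 18.1 (HF20) and 918 (HFC). Its other probe followed the probe used at r = 0.49 over arrays.

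At 75 µg, Adamts16 (1.99, SE 1.09), Adamts6 (1.61, SE 0.76) and Mmp8 (1.60, SE 1.71) had the largest differences. The most negative were those of Adamts10 (-0.89, SE 0.42), Adamts9 (-0.81, SE 0.43) and Adamts1 (-0.68). Adamts9 was lower in HF75 than in HFC at all 6 time points, by 0.16 at Week 3, 0.63 at Week 6, 1.07 at Week 9, 0.72 at Week 12, 0.40 at Week 15 and 1.84 at Week 18, without passing (unadjusted p = 0.0703, adjusted p = 1.00 by limma). Its 2 probes correlated at r = 0.44 over arrays.

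**Figure D2:**
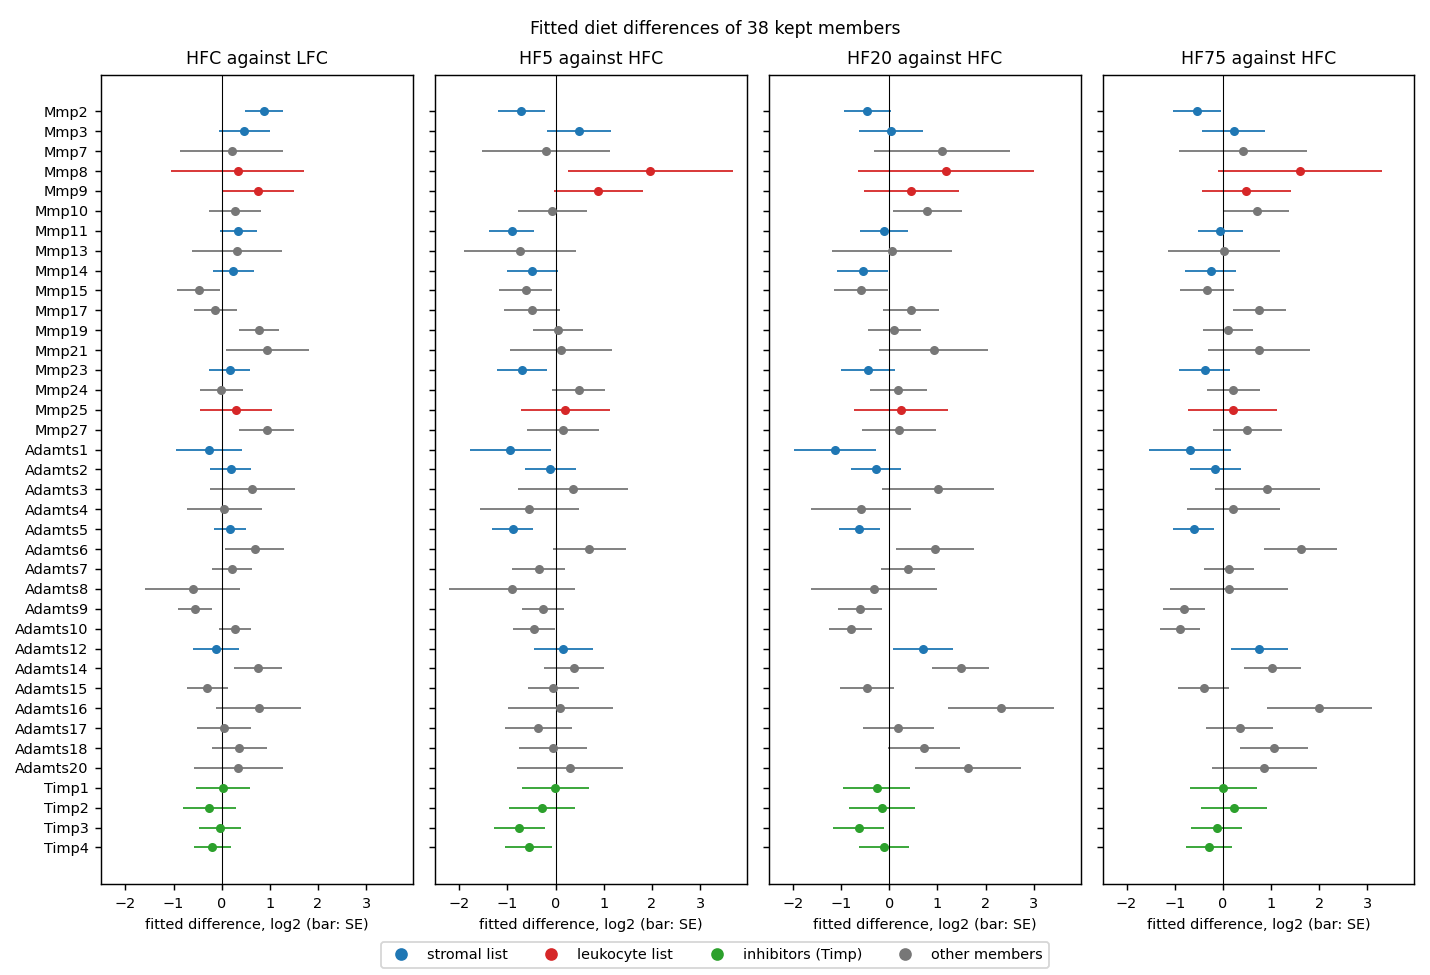
Fitted log2 difference (horizontal, with bars of 1 SE) of each kept member (vertical) in the 4 diet comparisons, with colours for the stromal list, the leukocyte list, the inhibitors and the other members. No difference passed, and the bars of most members reach across 0.

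A slope over the rank of the dose (HFC, 5, 20 and 75 µg) was fitted on 24 arrays from Week 3 to Week 18. No member passed (smallest adjusted p = 0.558; 0% of all probes), and 4 of 38 members had an unadjusted p under 0.05, against 7.04% of all probes. They were Adamts16 (0.92 per step, SE 0.35, mostly from spots below background), Adamts6 (0.60, SE 0.27), Adamts10 (-0.35, SE 0.14) and Adamts9 (-0.28, SE 0.12). The next in size were the slopes of Adamts20 (0.47) and Adamts15 (-0.29). Mmp2 (-0.22), Mmp14 (-0.14), Mmp9 (0.12), Timp1 (-0.02) and Timp3 (0.01) had smaller slopes.

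The trend over time was fitted on the 21 LFC and HFC arrays as a slope per doubling of days. No member passed (smallest adjusted p = 0.115; 0% of all probes). An unadjusted p under 0.05 was reached by 10 members (26.3%) against 11.9% of all probes. Of the 38 members 28 had negative slopes, with a median of -0.15, and the median over all kept genes was -0.05, with 36.0% positive. The steepest was that of Adamts17 (-0.67 per doubling, SE 0.12, adjusted p = 0.115), a protease linked to eye and skeletal growth, followed by Mmp27 (-0.39) and Mmp8 (-0.38). The largest positive slopes were those of Mmp3 (0.35, SE 0.15), Mmp2 (0.27) and Mmp13 (0.23), collagenase 3.

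Adamts17 in LFC was -1.58 at Day 1, -1.26 at Day 6, -0.41 at Day 10, -1.31 at Day 14, -2.32 at Week 0, -2.93 at Week 3, -3.29 at Week 9, -6.76 at Week 12, -4.85 at Week 15 and -4.83 at Week 18. In HFC it ran from -0.65 at Day 10 to -6.71 at Week 6. The first 5 time labels of both diets hold the higher values, down to -2.32, and the later ones lie at -2.31 or below, so they meet at 1 point. Adamts17 was well above background on all of the earlier arrays. It was below background on LFC Week 3 and Week 9 and on HFC Week 3, Week 6 and Week 18, whose levels give no measured size. Adamts17 passed under quantile normalization (-0.58, adjusted p = 0.0379) and with array brightness as a covariate (-0.63, adjusted p = 0.0491). The share of all probes called under those settings is not given, so these calls are not a result about Adamts17. The arrays of the later weeks were scanned on other dates than the early ones, each scan date held 1 time label, and the part of scan date in the trend cannot be told apart from that of time.

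To set stromal against leukocyte proteases, 2 lists of members were read side by side. The stromal list held Mmp2, Mmp3, Mmp11, Mmp14, Mmp16, Mmp23, Adamts1, Adamts2, Adamts5 and Adamts12 (9 kept, Mmp16 not), and the leukocyte list Mmp8, Mmp9, Mmp12 and Mmp25 (3 kept, Mmp12 not). No gene of either list passed in a diet comparison, and the medians are descriptions. In HFC against LFC the stromal median was 0.19, with 7 of 9 genes positive, and the leukocyte median 0.33, with 3 of 3 positive. The 4 TIMPs had a median of -0.12, with 1 of 4 positive.

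Against HFC, the stromal medians were -0.69, -0.43 and -0.26 in HF5, HF20 and HF75, with 2 of 9 genes positive in each. The leukocyte medians were 0.89, 0.46 and 0.49, with 3 of 3 positive in each, and the TIMP medians -0.42, -0.20 and -0.06. Marker medians moved alongside: the 10 neutrophil markers had medians of 1.00, 1.12 and 1.41 and the 11 fibroblast markers of -0.47, -0.52 and -0.24 in the same order, and none of these markers passed. Their part in the list medians was not tested. With log2 intensity as a covariate the leukocyte median became -0.80 in HF20 and -0.70 in HF75, and without the 9 arrays titled BA or BAT and HFC Week 6 it was -0.47 and -0.25. Without Week 15 the stromal median of HF75 became 0.31 and that of HF20 0.0453.

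Taken time point by time point, the leukocyte median of HFC over LFC was 0.68 at Day 1, 2.18 at Day 6, 1.77 at Day 10, -0.11 at Day 14, 0.02 at Week 0, 0.58 at Week 3, -6.04 at Week 9, 3.69 at Week 12, 1.64 at Week 15 and 2.99 at Week 18. The stromal median ranged from -1.08 at Week 9 to 2.85 at Week 12, where the HFC array is one with a high mesothelial mean. The lowest leukocyte value has the HFC array titled BA or BAT, and the values at Day 6, Week 12 and Week 18 have the LFC array so titled. Over the 4 diet comparisons, the leukocyte median was above 0 in 5 of 5 pairs where only the second array was titled BA or BAT (2.18 to 4.90) and below 0 in 4 of 5 where only the first was (-6.04 to 0.68). In the 17 pairs with like titles it ran from -0.68 to 4.56, and the 2 highest (HF5 and HF75 at Week 6) are values of Mmp25, whose spots were below background on both arrays of each pair, so they measure no difference in Mmp25. Of all 27 pairs, the gene that set the median was well above background on both arrays in 17 and on neither in 6. Pairs of 1 time label share their HFC array and are not independent repeats. Without Week 12 the fitted medians of HFC against LFC were -0.0772 for the stromal and -0.0158 for the leukocyte list.

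**Figure D3:**
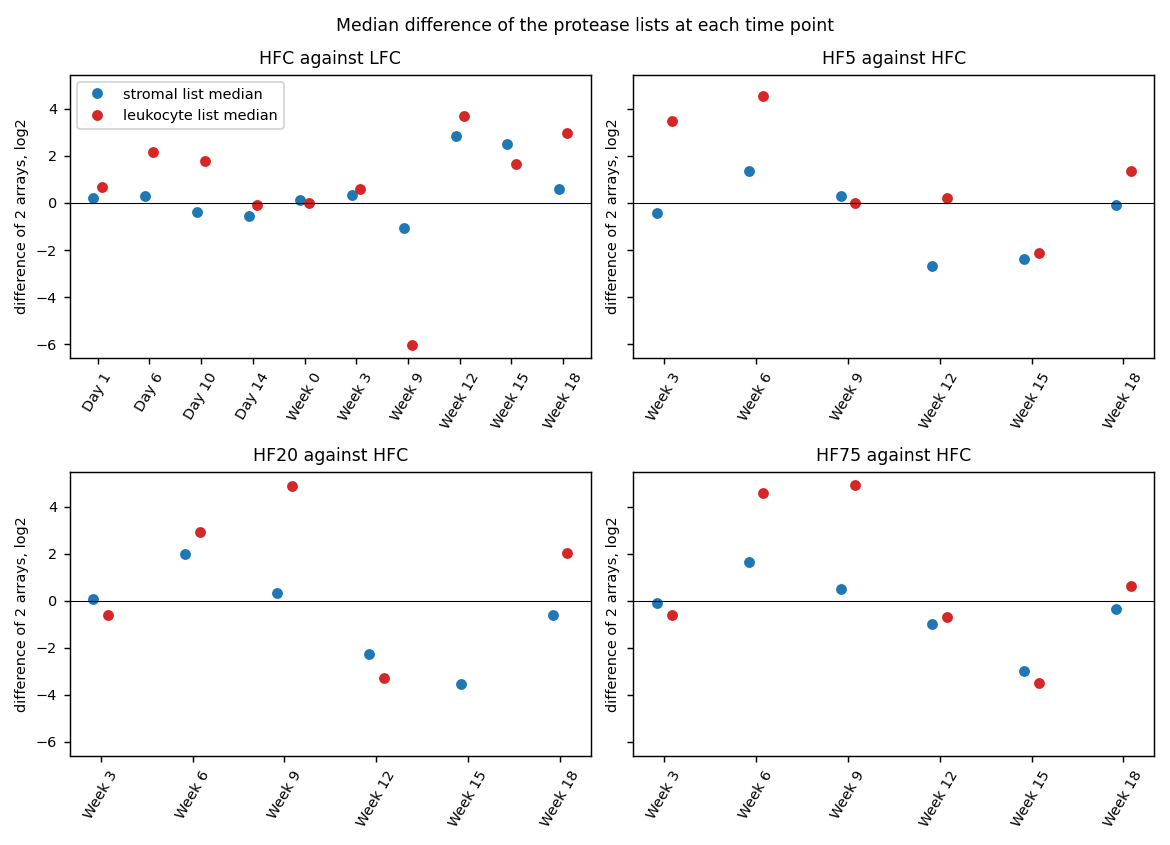
Median log2 difference of the stromal list (blue) and the leukocyte list (red) between 2 arrays of 1 time label, for each of the 4 diet comparisons. The leukocyte medians, 6 of 27 of which rest on a gene below background on both arrays, spread from -6.04 to 4.90 around 0 and the stromal medians from -3.54 to 2.85, and both change sign between weeks.

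Over single arrays, the proteases of each list were set against the mean level of marker genes, in 36 relations (12 genes, 3 marker scores) with permutation tests of 100000 resamples adjusted over the 36. Mmp8 and the neutrophil score fall into a dim and a bright cluster, so values are given within titles. On the arrays with other titles Mmp8 followed the neutrophil score at Pearson r = 0.95 (Spearman rho = 0.93, n = 28), and on the 9 titled arrays at r = 0.94. Mmp8 was well above background on 2 of those 9, so the r there rests mostly on spots below background. On the arrays with other titles the permutation p was 1e-05, the smallest that these permutations can give (adjusted p = 5.14e-05). There r was 0.91 without the 2 arrays farthest on the score. Mmp9 followed the same score at r = 0.82 (rho = 0.89, permutation p = 1e-05, adjusted p = 5.14e-05, n = 28) and at 0.70 on the titled arrays, where its r with the fibroblast score was 0.83. For Mmp25, r was 0.70 (rho = 0.49, permutation p = 0.00024, adjusted p = 0.00108), but 0.38 without the 2 farthest arrays, so that relation rests on them. Mmp25 was well above background on 5 of the 30 arrays with other titles. With the macrophage score, on the arrays with other titles, r was 0.62 for Mmp9 (rho = 0.68, permutation p = 0.00029, adjusted p = 0.00116). For Mmp8 it was 0.53 (rho = 0.56, permutation p = 0.00469, adjusted p = 0.0154), and for Mmp25 0.19 (adjusted p = 0.443). Over all arrays these r were 0.77, 0.71 and 0.46. Mmp8 and Mmp9 thus followed the macrophage score too, but less closely than the neutrophil score.

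Adamts2 and Mmp14 followed the fibroblast score, at r = 0.89 (rho = 0.91) and 0.85 (rho = 0.85) over all 39 arrays, both with a permutation p of 1e-05 and an adjusted p of 4e-05. Without the 2 farthest arrays r was 0.88 and 0.83, on the residuals of diet and time point 0.89 and 0.82, and on the 30 arrays with other titles 0.89 and 0.82. Adamts5 and Mmp23 had r = 0.80 and 0.78 over all arrays. On the 9 titled arrays r was 0.84 for Adamts2, 0.78 for Mmp14 and 0.77 for Adamts5, but 0.29 for Mmp23. Mmp2 reached 0.61 over all arrays, 0.69 on the 30 and -0.03 on the 9 titled arrays. Over all arrays Adamts1 had r = 0.59 with the fibroblast and 0.48 with the neutrophil score, and Mmp11 0.43 and 0.32. Mmp3 and Adamts12 of the stromal list did not follow the fibroblast score more closely than the neutrophil score over all arrays. For Mmp3, r was 0.42 with the fibroblast and 0.46 with the neutrophil score (0.35 and 0.50 on arrays with other titles). On the residuals of diet and time point its values were 0.80 and 0.72. For Adamts12, r was 0.07 and 0.48 over all arrays. In the other direction, Mmp8 and the fibroblast score had r = 0.43 over all arrays and 0.09 on the arrays with other titles, and Mmp14 and the neutrophil score 0.40 and -0.000236, but 0.80 on the 9 titled arrays. In all, 26 of the 36 relations had an adjusted p under 0.05 over all arrays and 12 without the 9 titled ones. These arrays share their brightness, whose part in the relations was not tested.

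**Figure D4:**
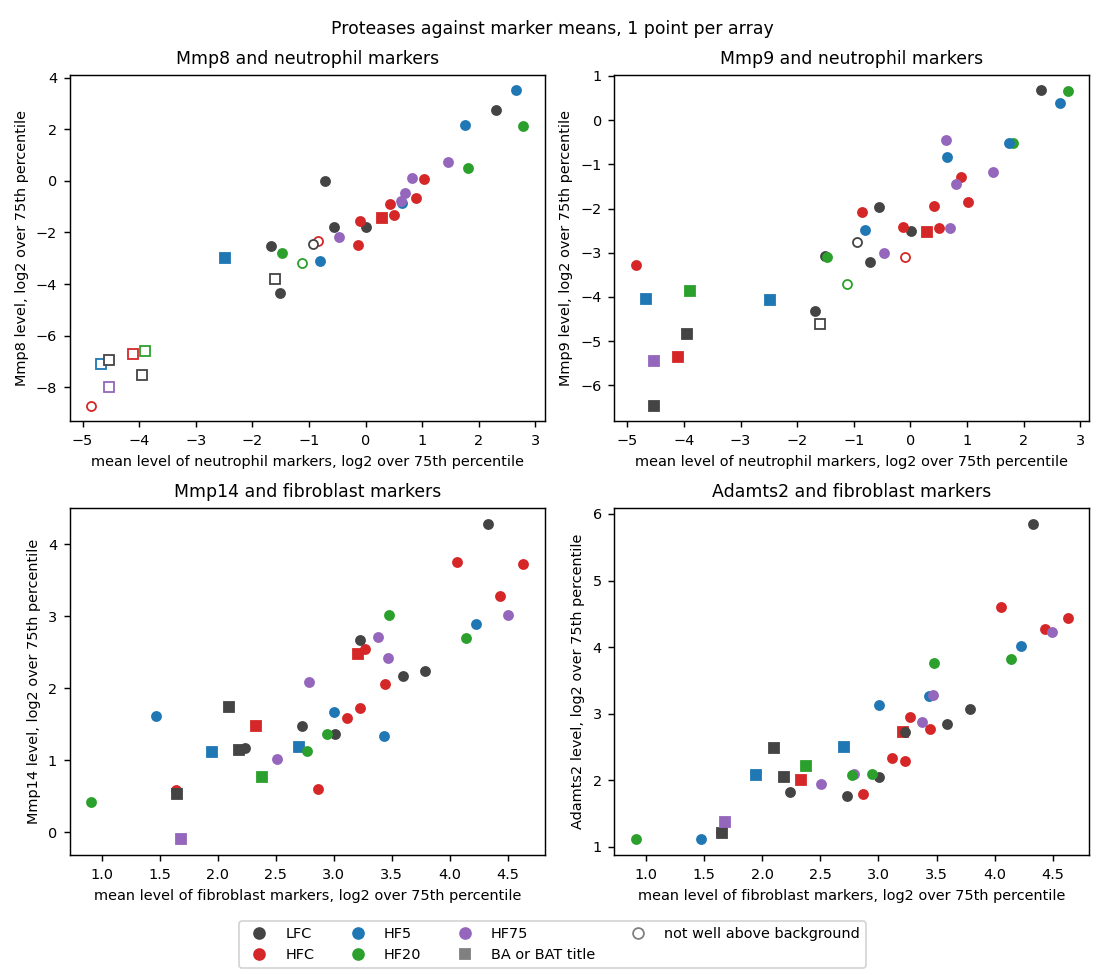
Levels of Mmp8 and Mmp9 against the mean of the neutrophil markers (top) and of Mmp14 and Adamts2 against the mean of the fibroblast markers (bottom), 1 point per array, in log2 over the array's 75th percentile, with squares for BA or BAT titles and open symbols below background. In the Mmp8 panel the 7 points under -6 are 6 squares and HFC Week 6, and the points of the 5 diets mix.

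The largest differences among the members were between the arrays titled BA or BAT and the others. The titled arrays were also the brighter ones (median intensity 852 against 81.1), and the meaning of the token is not given. With diet and time point in the fit, 20 of 38 members (52.6%) passed, 19 lower and 1 higher, where 52.4% of all probes passed, 31.8% lower and 20.5% higher. An unadjusted p under 0.05 was reached by 24 members, against 58.7% of all probes. The share of members called was thus near that of all probes. The median of the members was -1.37 and that of all kept genes -0.37, with 2 of 38 members positive against 40.8% of all genes.

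Mmp13, with a log2 difference of -3.62 (SE 0.65), and Mmp9, with -2.87 (SE 0.51), were well above background on 8 of the 9 titled arrays each, and both passed. The fit also gave -5.41 for Mmp8 (SE 0.93, adjusted p = 0.000172), -3.68 for Adamts16 (SE 0.54) and -3.22 for Adamts20 (SE 0.71). Those 3 passed too, but Mmp8 was well above background on 2 of the 9 titled and 26 of the 30 other arrays, Adamts16 on 1 and 14 and Adamts20 on 1 and 5, so the sizes are set by spots below background, scaled by brighter arrays, and are not measured differences. The titled array counted for Adamts20, HFC Day 1, has no value for it. Adamts1 (-1.81), Timp1 (-1.74), Timp2 (-1.41) and Mmp3 (-1.34) were also lower and passed. The 1 member called higher was Mmp15 (1.23, SE 0.38, adjusted p = 0.010). Mmp2 (-0.02), Adamts10 (0.02), Timp4 (-0.06) and Mmp14 (-0.91, adjusted p = 0.0503) did not pass. In the 10 pairs of arrays of 1 time label with unlike titles, Mmp8 was lower on the titled array in 10, most often with its spot there below background, as were Adamts16, Adamts2 and Timp2. Mmp9, Timp1, Timp3, Adamts1, Mmp3 and Mmp13 were lower in 9, and Mmp15 in 2.

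Of the role groups, all 3 leukocyte proteases were called lower, as were 2 of 9 stromal proteases (median -0.56) and 2 of 4 TIMPs (median -1.07). The lists cannot be compared by these counts, since Mmp25 was well above background on 1 of 9 titled and 5 of 30 other arrays and Mmp8 on 2 of 9 titled arrays, and only Mmp9 of the 3 was measured on most arrays of both kinds. Of the 7 proteoglycanases 3 were called lower, and of the 5 membrane-type enzymes 2 lower and 1 higher. All 10 neutrophil markers tested (median -4.25), 7 of 10 macrophage and 5 of 11 fibroblast markers were called lower, and 6 of 8 general and 4 of 8 brown adipocyte markers higher. Beside all these counts, 31.8% of all probes were called lower and 20.5% higher. On the titled arrays the mean level of the neutrophil markers ran from -4.68 to 0.30 and on the others from -4.85 to 2.78, and 3 of 10 were well above background on all arrays of either kind. The part of these markers and of brightness in the members' differences was not tested. Over all arrays the level of 34 of 38 members went down with log2 intensity, with r under -0.5 for 18 of them, from -0.77 (Adamts3) and -0.77 (Mmp8) to 0.16 (Adamts10).

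The members called in this comparison also depended on how arrays were scaled. Under quantile normalization 12 passed, 11 lower and 1 higher, and 67.6% of all called probes were higher, against 39.2% under the 75th percentile. The median of all probes was 0.21 there and -0.30 in the first. With log2 intensity as a covariate 4 members passed, namely Mmp13 (-3.22), Adamts20 (-3.56), Adamts16 (-2.67) and Mmp15 (1.76), and 84.1% of called probes were higher. Under normexp 27 passed, all lower, where 83.4% of all probes passed, the median of all probes was -1.37, and 8 of 38 members turned sign, among them Mmp15 (-0.10), Timp2 (0.11), Timp3 (0.87), Timp4 (0.47) and Adamts2 (0.49). With log2 intensity as a covariate 10 members turned sign, and under quantile normalization 4. Mmp8 was -3.88 under quantile normalization, -2.88 under normexp and -2.04, without passing (adjusted p = 0.331), with log2 intensity as a covariate. Without the arrays of Week 9 the count was 10, and without those of Week 12 or of Week 15 it was 12. The share of all probes called was 52.4% in the first fit and 83.4% under normexp, and it is not given for the other settings. The counts are therefore not a result about the members.

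**Figure D5:**
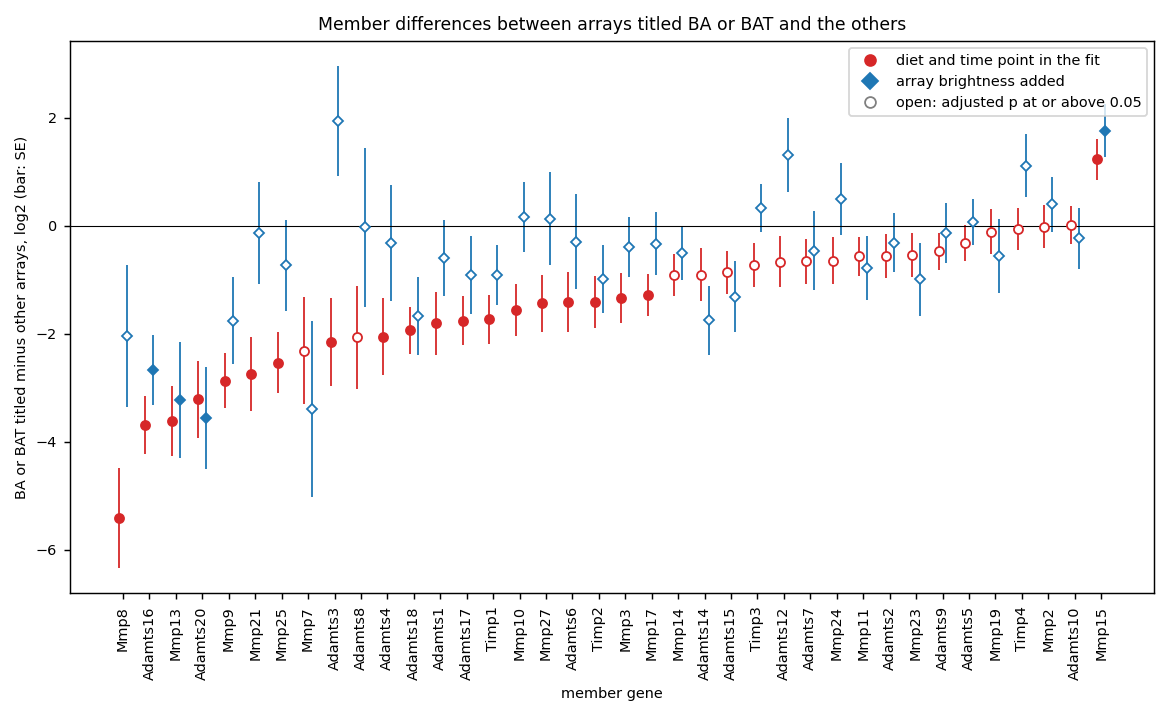
Fitted log2 difference of each kept member between arrays with BA or BAT in the title and the other arrays (vertical, bars of 1 SE), in red with diet and time point in the fit and in blue with array brightness added, filled where the adjusted p was under 0.05. In red Mmp8, below background on 7 of the 9 titled arrays and so without a measured size, is the lowest at -5.41 and Mmp15 the highest at 1.23, and in blue Mmp8 lies at -2.04 and is open; under normexp, which is not drawn, Mmp15 turned to -0.10.

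Related proteases and regulators (35 tested, among them Adam and Adamts-like genes, plasminogen activators, cathepsins and serpins) gave no call in the diet, dose, time or interaction comparisons. In the title comparison 16 of them were lower and 5 higher past the threshold, where 31.8% of all probes were lower and 20.5% higher. The most negative were A2m (-3.65), the general protease inhibitor of plasma, Lcn2 (-3.64), which binds Mmp9 in neutrophils, and Serpinb2 (-2.99), and the highest was Bsg (1.51), known as an inducer of metalloproteinases.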

How the data were processed

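RNA of the tissue labelled brown infiltrating macrophages (SVCs) was labelled with Cy3 and hybridised to 39 one-colour Agilent arrays, and the members and gene lists were chosen with earlier results of these data known. Per the file headers, the authors extracted background-subtracted processed intensity values with Feature Extraction 10.5.1.1 (43803 spots per array, 40628 probes). They also deposited a table of log2 values in which 1 array of each time label is 0 (LFC, at Day 14 HFC, at Week 6 none), and all 39 of its columns were mapped by title. Its differences follow the scanner files at r = 0.77 to 1.00 over probes, but at Day 14 at r = -0.995, as if its 2 Day 14 columns were exchanged against the scanner files, whose labels were kept.

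From the scanner files, log2 of the processed intensity minus the 75th percentile of each array was taken, outlier-flagged spots were dropped, spots of a probe were averaged, and probes well above background on at least 6 arrays were kept (34043). The brightest kept probe stands for a gene. limma 3.58.1 in R 4.3.3 (statmod 1.5.0) fitted diet and time point over 39 arrays, with Benjamini-Hochberg adjustment over all kept probes, a threshold of 0.05 and two-sided tests. The fit was tested on simulated data. As there is 1 array per diet and time label, time points stand in for replicates and p-values measure the spread between arrays, although the design text of the series speaks of 3 biological replicates. LFC and HFC arrays of Day 14 and Week 0 are the same day. LFC Day 1 was grouped by its feeding label and HF20 Week 12 by its source name, since its feeding label names the high fat diet alone. The number of arrays limits the precision, as does brightness.

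Genes with values per array were fixed by a rule (Mmp2, Mmp3, Mmp14, Mmp8, Mmp9, Mmp12, Mmp25, the 4 TIMPs, Adamts1, Adamts2, Adamts5), and for each comparison the called members, at most 5 a direction, and the 3 largest positive and negative differences were named. The values of Adamts17 by array, and other members named outside this rule, were chosen after their values were seen. The arrays lie on 36 slides and 18 scan dates. Alternatives were the normalization, background correction, filters, array weights, scan date and slide, blocks, single time points, titles and the table. Gene positions are those of RefSeq on GRCm38.p6.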

Additional observations from a re-analysis of the deposited data

Results flagged for a closer look

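A search for arrays far from the rest of their diet covered 52 groups of arrays of LFC, HF5, HF20 and HF75. HFC, with 11 arrays, has more than the search allowed and was not searched. Chance alone would mark about 1 in 20 of the groups, and the search found 4. Mmp14 on HF5 Week 6 stood at 2.90, and the nearest HF5 array at 1.67. Mmp8 on HF75 Week 15 stood at -8.00, where the nearest HF75 array was at -2.17, and this array is titled BA or BAT. Adamts1 on LFC Week 12, also titled BA or BAT, stood at 0.33 with the nearest LFC array at 3.14. Adamts2 on LFC Day 10, an array with a high mesothelial mean, stood at 5.85, against 3.07 on the nearest. None of 13 members compared between the earlier and later time labels had all differences of HFC over LFC in opposite directions.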

How the results depend on the processing

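The counts of members called were 0 in the diet, dose and interaction comparisons under all alternatives run, and the trend over time also called 0, other than under quantile normalization and with array brightness as a covariate (1 member each, Adamts17). With no replicate block, that is without time point in the fit, the title comparison called 21 members, against 20 with the block, and the other comparisons called 0. In the title comparison 12 members passed under quantile normalization, 5 with array weights, 5 of 9 among probes well above background on all 39 arrays, 4 with array brightness as a covariate (chosen after seeing the data), and 10 to 25 with single time points left out, with 10 without Week 9, 12 without Week 12 and 12 without Week 15. In it, normexp turned 8 of 38 members, namely Mmp15 (-0.10), Adamts10 (-1.51), Timp2 (0.11), Timp3 (0.87), Timp4 (0.47), Adamts2 (0.49), Adamts5 (0.21) and Mmp14 (0.00034). The share of all probes called is not given beside the counts of the title comparison and of the trend here, so they are not a result about the members.

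The list medians moved more. The leukocyte median became -0.32 for HFC against LFC under normexp, -0.28 (HF20) and -0.00319 (HF75) with array weights, -0.89 and -1.26 with scan date as a block, and, in alternatives chosen after seeing the data, -0.80 and -0.70 with brightness as a covariate and -0.47 and -0.25 without the 9 titled arrays and HFC Week 6. The stromal median became -0.00426 for HFC against LFC without the 9 titled arrays, and for HF75 0.0525 without the 3 arrays with over 10% of spots flagged and 0.0514 with the deposited table. With the 2 Day 14 columns of that table exchanged, also chosen after seeing the data, it was -0.0229 for HFC against LFC, 0.0201 for HF20 and 0.0800 for HF75. Single time points left out gave leukocyte medians of -0.0158 to 1.42 (HFC against LFC), 0.43 to 1.42 (HF5), -0.16 to 1.09 (HF20), -0.0293 to 1.22 (HF75) and -3.29 to -2.06 (titles), and stromal medians of -0.0772 to 0.37, -0.94 to -0.23, -0.64 to 0.0453, -0.69 to 0.31 and -0.69 to -0.47 in the same order. The leukocyte median turned without Week 9 for HF20 (-0.12) and HF75 (-0.0293) and without Week 18 for HF20 (-0.16). The cause was not tested.

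Of the 36 correlations 12 had an adjusted p under 0.05 without the titled arrays, where Mmp14 with the neutrophil score turned to -0.000236, and 26 without the 2 farthest arrays. Of 3811 values of named members under alternatives, 377 changed sign, 34 lost and 15 gained the threshold. Scan date and slide as random blocks had correlations of -0.12 and -0.16.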

Other observations

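Day 14 and Week 0 are the same day by the study's calendar and were scanned apart, so they give a repeat of each diet. Over the 38 members the median size of the difference between the 2 arrays was 0.95 for LFC, with 18 members over 1, and 1.53 for HFC, with 28 over 1. Over all kept genes it was 0.86 for LFC and 1.11 for HFC. The largest was that of Adamts3, 4.54 in LFC and 5.83 in HFC, a member well above background on 7 arrays. For comparison, the median size of the HFC difference from LFC within 1 time label ran from 0.29 at Week 0, with 4 members over 1, to 2.68 at Week 12, with 29 over 1.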
